A study of Saccharomyces cerevisiae with 14 samples.

Results

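The snR72 to snR78 cluster of budding yeast (Saccharomyces cerevisiae) holds 7 small nucleolar RNAs (snoRNAs) that are made as parts of 1 long transcript. Its members were taken by name from the deposited count table, 7 of 12449 annotated features, and the table holds 70 other snoRNA features. All 7 passed the filter on low counts. Their levels were read in RNA labelled for 1.5, 2.5 or 5 min, in total RNA and in a control capture without label.

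All samples came from strain W303U, a MATa strain with can1-100, ade2-1 and trp 1-1 and with the auxotrophic alleles leu2-3, 112 and his3-11, 15, grown in SD medium lacking uracil and leucine. Cultures of 600 ml at 30 °C and an OD600 of 0.8 received 500 µM 4-thiouracil (4tU), a thiolated uracil that growing cells take up and incorporate into nascent transcripts, and were frozen in cold methanol. From 2 mg of RNA the thiol-carrying molecules were biotinylated, bound to streptavidin and sequenced after random priming. Each labelling time had 3 libraries, 1 from each of timecourses 1, 2 and 3, as did total RNA depleted of rRNA. The no-label group, taken through the capture without 4tU, had 2 libraries, titled as timecourses 1 and 3. Their count columns do not say which is which, so they are called no-label libraries 1 and 2, and timecourse 1 stands below for its 3 labelled libraries and its total library alone. Nothing in the labels says whether the timecourses were separate cultures, so p-values measure the spread between these samples, which may be technical. In such bulk samples, fewer cells that make an RNA and less of it per cell cannot be told apart.

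Box C/D snoRNAs guide the methylation of ribosomal RNA. Each carries box C near its 5′ end, box D near its 3′ end and often internal copies, C′ and D′, and binds the proteins Nop1, Nop56, Nop58 and Snu13. A stretch just before box D or D′ pairs with rRNA, and the nucleotide paired with the fifth base before the box is methylated. In yeast the transcript of this cluster is cut between the snoRNAs by the RNase III enzyme Rnt1, and exonucleases, among them Rat1 and Xrn1 from the 5′ end and the nuclear exosome from the 3′ end, trim each piece to the mature RNA. The question addressed by the design is how fast new transcripts appear and mature, and for the cluster it is how the members of 1 transcript appear in newly made RNA beside the standing pool.

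The cluster lies on the forward strand of chromosome XIII at 297278 to 298651 (build R64), a span of 1374 bases of which the mature snoRNAs cover 48.4%. In transcript order it runs snR78, snR77, snR76, snR75, snR74, snR73, snR72. snR78 is at 297278 to 297364, snR77 at 297506 to 297593, snR76 at 297725 to 297833 and snR75 at 297918 to 298006. snR74 is at 298138 to 298225, snR73 at 298307 to 298412 and snR72 at 298554 to 298651. The spacers between them are 141, 131, 84, 131, 81 and 141 bases long in that order. In the RefSeq annotation the nearest protein-coding gene on each side is SEC59, 539 bases before snR78 on the other strand, and BUD22, 216 bases after snR72 on the same strand. The count table also lists YMR013W-A as protein-coding, and its position was not used here. SEC59 encodes dolichol kinase.

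The mature RNAs are 87 to 109 bases long, and the sequences are shown because length and uridine content, where 4tU can enter, differ among them. They are given 5′ to 3′ in DNA letters from the S288C reference (RefSeq, build R64), not from W303U. Capitals mark the longest perfect match to 18S or 25S rRNA that ends at most 3 bases before a CTG of box D or D′.
snR78: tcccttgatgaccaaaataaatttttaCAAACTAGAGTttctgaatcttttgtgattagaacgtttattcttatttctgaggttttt
snR77: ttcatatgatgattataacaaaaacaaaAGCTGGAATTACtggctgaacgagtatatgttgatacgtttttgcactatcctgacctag
snR76: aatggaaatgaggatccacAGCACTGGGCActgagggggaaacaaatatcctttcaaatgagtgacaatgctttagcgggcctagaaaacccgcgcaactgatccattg
snR75: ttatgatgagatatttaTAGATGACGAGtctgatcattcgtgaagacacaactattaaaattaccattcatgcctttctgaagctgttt
snR74: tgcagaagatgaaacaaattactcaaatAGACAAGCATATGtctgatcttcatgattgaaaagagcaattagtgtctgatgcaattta
snR73: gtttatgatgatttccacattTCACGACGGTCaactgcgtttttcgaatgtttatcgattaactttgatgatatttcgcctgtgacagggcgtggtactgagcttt
snR72: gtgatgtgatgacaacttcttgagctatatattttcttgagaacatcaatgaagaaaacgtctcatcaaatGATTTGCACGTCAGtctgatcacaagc

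The capitals of each RNA fall on a different rRNA position. In 25S rRNA, the nucleotide opposite the fifth base before the box was U at 2421 for snR78, C at 2197 for snR76, G at 2288 for snR75, C at 2959 for snR73 and A at 876 for snR72. In 18S rRNA it was U at 578 for snR77 and A at 28 for snR74. The guide of snR72 lies before its last CTGA, the place of box D, and the guides of the other 6 lie before an internal box. snR78, snR77, snR74 and snR75 are the short ones, at 87, 88, 88 and 89 bases, and snR72, snR73 and snR76 have 98, 106 and 109. The letter T makes up 44.8% of snR78 and 38.7% of snR73, against 19.3% of snR76, the member with the fewest (21 against 39 in snR78).

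Total counts ranged from 3618310 to 65173280 per library, the lowest being total RNA of timecourse 1. rRNA features took 2.34% to 28.7% of the counts in labelled and total libraries, and 51.2% and 55.4% in the no-label libraries. Cluster reads per library ran from 1227 in total RNA of timecourse 1 to 191149 in total RNA of timecourse 2. They made up 0.187% to 0.337% of all snoRNA reads in the 4 libraries of timecourse 1. In the 8 of timecourses 2 and 3 they made up 0.554% to 1.48%, and in the no-label libraries 0.628% and 1.74%. Intervals and detection limits given here cover counting error only, because PCR reads are not independent molecules.

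Timecourse 1 stood apart for the short members in its 3 labelled libraries and its total library. snR78 had 0, 3 and 2 reads at 1.5, 2.5 and 5 min and 0 in total RNA there, where a count of 0 in total RNA allows up to 0.953 CPM, counts per 1000000 non-rRNA reads. In timecourse 2 the same RNA had 260, 594, 736 and 13563 reads, and in timecourse 3 it had 1323, 1757, 3465 and 9653. snR75 had 11, 12, 13 and 2 reads in timecourse 1, against 782 to 37485 in timecourse 2 and 3619 to 9673 in timecourse 3. snR77, of nearly the same length, kept 413, 736, 735 and 458 reads in timecourse 1, so the short members were not equally low. The no-label libraries did not share the pattern. They held 3633 and 1573 reads of snR78 and 4081 and 3556 of snR75, although 1 of them is titled timecourse 1.

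The pattern reached beyond the cluster. Over all 77 snoRNA features, the log2 level in timecourse 1 minus that in timecourses 2 and 3 had a median of −5.53 for the 13 shorter than 90 bases. The median was −1.11 for the 23 of 90 to 110 bases and −0.27 for the 41 longer ones. With counts under 3 set to 3 these medians were −5.54, −1.19 and −0.27. Spearman's rho between length and this difference was 0.64 over the 77 features and 0.74 over the 7 members, which share libraries and depth. snR59, snR67 and snR79, at 78, 82 and 84 bases, had no read in these 4 libraries. Short RNAs that did not follow included snR39 (89 bases, a difference of 0.38), snR41 (95 bases, 2.15) and snR39B (96 bases, 1.22). snR55 (98 bases, −0.12) and snR51 (107 bases, −0.007) were near 0. Some RNAs over 110 bases were low in timecourse 1 too, among them snR68 (136 bases, −3.25), snR9 (187 bases, −2.67), snR189 (189 bases, −2.14) and snR70 (164 bases, −2.12). The part of this pattern in the results on the short members was not tested, beyond the values given without timecourse 1.

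**Figure D1:**
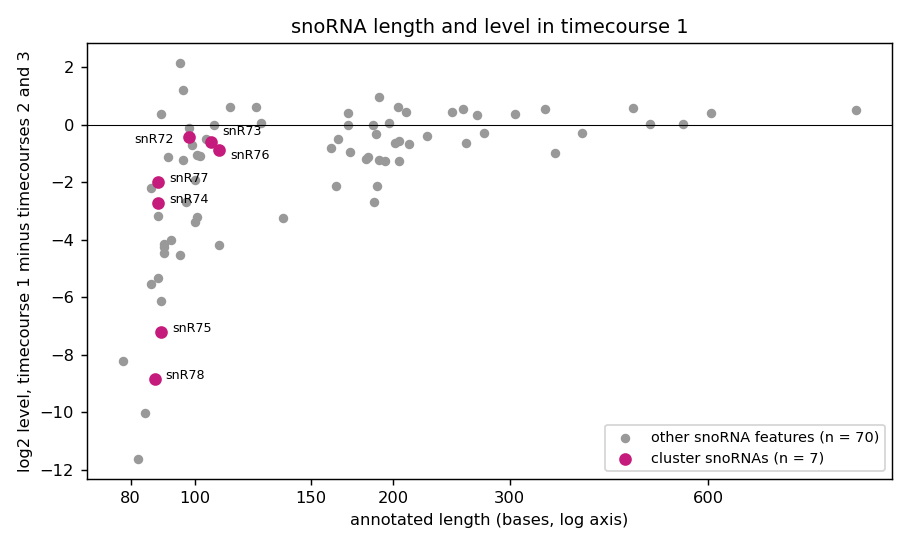
Level of each snoRNA feature in timecourse 1 minus timecourses 2 and 3 (log2 CPM of non-rRNA reads, 0.5 added to each count, mean over 3 labelling times and total RNA) against annotated length on a log axis. The cluster members of 87 to 89 bases lie below those of 98 to 109 bases, with snR75 and snR78 lowest, and most snoRNAs over 110 bases lie near the zero line.

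The normalised read counts, in CPM after TMM scaling, placed all 7 members highest in total RNA by group mean, then in the no-label capture, then in labelled RNA. Among labelling times the order of means was 5, 2.5 and 1.5 min for 6 members. For snR76 the mean at 1.5 min (77.8 CPM) was above that at 2.5 min (66.3 CPM), and no difference between labelling times passed the test given further on. Mean CPM in total RNA was 9.46 times that at 1.5 min for snR76 and 45.7 times for snR78, the lowest and highest ratios. Total RNA also had the largest SD of the 5 groups for each member.

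snR77, the guide for 18S U578, was the most abundant member per base in 11 of 14 libraries. In timecourses 1, 2 and 3 its CPM was 35.4, 64.5 and 88.6 after 1.5 min of label, 47.5, 122 and 163 after 2.5 min, and 69.5, 213 and 230 after 5 min. Its total libraries had 288, 1236 and 3868 CPM, and the no-label libraries 767 and 733. All 9 labelled libraries lay below every total and no-label library.

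snR76, the longest member and the poorest in T, guides C2197 in 25S. It had 99.6, 89.5 and 44.2 CPM after 1.5 min of label, 72.5, 80.9 and 45.6 after 2.5 min, and 72.5, 116 and 57.0 after 5 min. Its total libraries had 84.3, 1274 and 848 CPM and the no-label libraries had 646 and 471. Total RNA of timecourse 1 overlapped the labelled libraries, while the other total libraries were far above them.

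snR73, the guide for C2959 in 25S, had 42.0, 27.9 and 65.0 CPM after 1.5 min, 60.4, 44.6 and 105 after 2.5 min, and 77.5, 48.2 and 93.8 after 5 min of label. In total RNA it had 270, 471 and 1626 CPM and the no-label libraries 323 and 546, with no overlap with labelled RNA after TMM scaling. snR72, the last member and the guide for A876, was low and even, with 25.1, 13.0 and 20.2 CPM after 1.5 min, 19.8, 20.7 and 28.4 after 2.5 min, and 22.4, 27.7 and 37.1 after 5 min. Its total libraries had 125, 283 and 185 CPM and its no-label libraries 229 and 139, again without overlap.

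snR74, the guide for A28 in 18S, had 8.66, 9.49 and 11.97 CPM after 1.5 min, 5.48, 12.7 and 29.5 after 2.5 min, and 10.3, 16.8 and 39.6 after 5 min. In total RNA it had 3.14, 375 and 425 CPM and the no-label libraries 173 and 128. Total RNA of timecourse 1 (5 reads) lay below every labelled library.

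snR75, the guide for G2288, had 26.9 and 80.6 CPM after 1.5 min in timecourses 2 and 3, 55.6 and 128 after 2.5 min, and 62.1 and 159 after 5 min. The total libraries of these timecourses had 974 and 1408 CPM and the no-label libraries 448 and 561. In timecourse 1 all 4 libraries were between 0.774 and 1.26 CPM. snR78, the first member and the guide for U2421, had 8.94 and 29.5 CPM after 1.5 min in timecourses 2 and 3, 24.1 and 55.8 after 2.5 min, and 21.9 and 114 after 5 min. The total libraries there had 352 and 1405 CPM and the no-label libraries 399 and 248. Within timecourses 2 and 3, no labelled library of either RNA reached a total library.

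**Figure D2:**
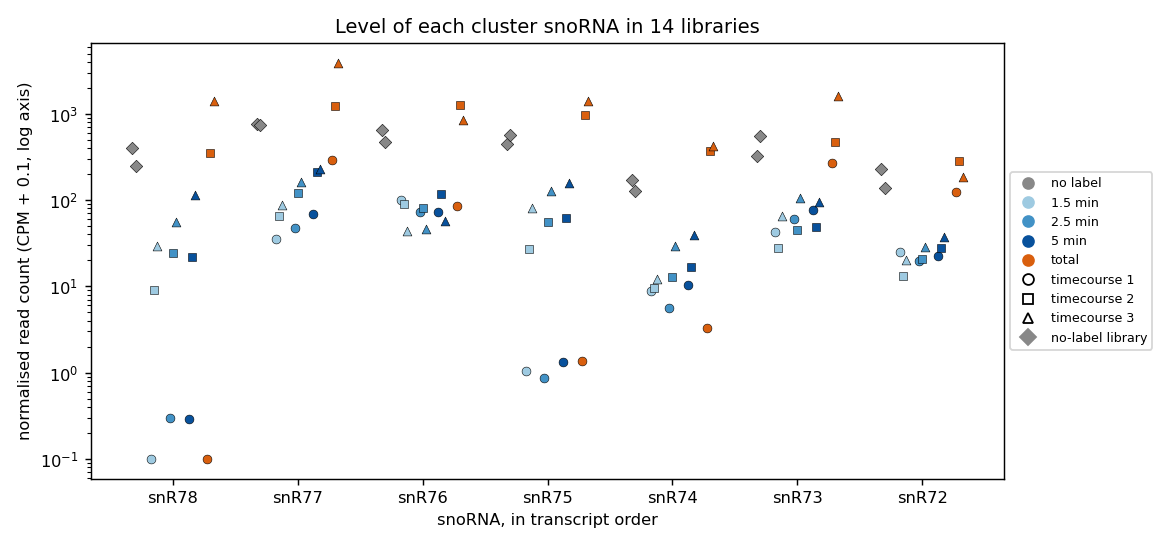
Normalised read count (CPM after TMM scaling, 0.1 added, log axis) of each cluster snoRNA in 14 libraries, with colour for the group and symbol for the timecourse. Labelled libraries lie below total RNA in timecourses 2 and 3 for all 7 members, while in timecourse 1 snR78 and snR75 lie near or below 1 CPM in every library.

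Against total RNA, 5 of 7 members were lower after 1.5 min, 5 after 2.5 min and 4 after 5 min (edgeR quasi-likelihood F test, Benjamini-Hochberg adjustment over 11513 features, threshold 0.05). Of all features tested 11.4%, 10.2% and 8.47% were lower at these times. The members' median log2 fold change was −4.46, −3.69 and −3.42, against 0.03, 0.11 and 0.13 over all features. TMM scaling sets the bulk of features near 0, so a log2 fold change is relative to that bulk and not to RNA per cell. These 3 comparisons share the same total libraries.

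At 1.5 min snR77 was at −4.84 on the log2 scale (SE 0.93, adjusted p = 0.00491), snR74 at −4.74 (SE 1.24, adjusted p = 0.0216) and snR73 at −4.13 (SE 0.70, adjusted p = 0.00231). snR72 was at −3.35 (SE 0.40, adjusted p = 0.00047) and snR76 at −3.25 (SE 0.77, adjusted p = 0.0139). snR78, at −5.51 ± 2.63 (SE), and snR75, at −4.46 ± 2.22, had the widest errors and did not pass (adjusted p = 0.158 and 0.173). Their errors include timecourse 1, where both were at or near 0 in labelled and total RNA alike. At 5 min the called members were snR72 (−2.77), snR73 (−3.43), snR76 (−3.17) and snR77 (−3.40). snR74, at −3.59 ± 1.17, had an adjusted p of 0.0679.

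With the timecourse as a block in the fit, which compares each labelled library with total RNA of its own timecourse, 7 of 7 members were lower at all 3 times. Of all features, 14.7%, 13.7% and 12.1% were lower in that fit. snR78 was then at −5.33 ± 0.54, −3.98 ± 0.52 and −3.61 ± 0.50 (SE) at 1.5, 2.5 and 5 min (adjusted p = 0.000109, 0.000491 and 0.000846), values that rest on timecourses 2 and 3. snR75 was at −4.08, −3.49 and −3.15 (adjusted p = 0.000898, 0.00167 and 0.00344). snR74 at 5 min was at −3.25 ± 0.96 (adjusted p = 0.0424).

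**Figure D3:**
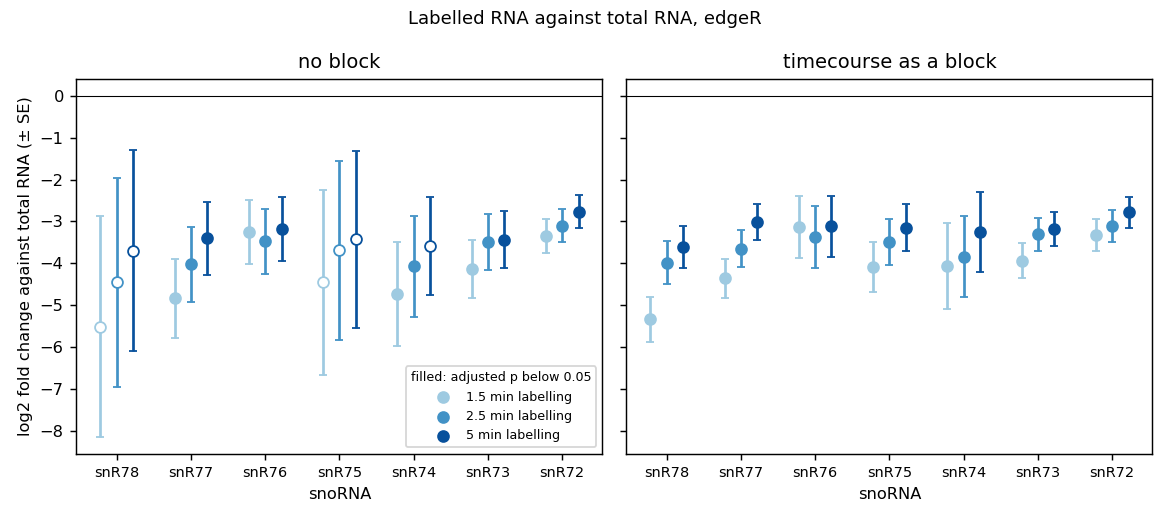
Log2 fold change of each cluster snoRNA in labelled against total RNA (edgeR, points with SE bars) at 3 labelling times, without a block on the left and with the timecourse as a block on the right; filled points have an adjusted p below 0.05. All points lie below 0, and the error bars of snR78 and snR75 are shorter with the block.

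Without timecourse 1 the counts of members called lower were 6, 4 and 0 at 1.5, 2.5 and 5 min, and of all features 2.35%, 1.18% and 0% were. The members' median log2 fold changes were then −4.34, −3.99 and −3.56. Without timecourse 2 no member and no other feature was called (0%). Without timecourse 3 the counts were 3, 3 and 2, and of all features 16.6%, 14.4% and 12.7% were lower. Scaling by library size alone shifted the median of all features to 1.97, 2.04 and 1.86 against total RNA, and the members' medians to −2.39, −1.67 and −1.48, with 3, 2 and 1 called (0.782%, 0.634% and 0.565% of all features). Every member stayed below 0 against total RNA under each scaling.

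Pair by pair within a timecourse, 17 of 19 values at 1.5 min, 18 of 19 at 2.5 min and 18 of 19 at 5 min were below 0. This leaves out the 2 per time in which a count was at or under 3. Members of a timecourse share the same libraries and scaling, so these values are not replicates, and all features were not counted in this way. The values above 0 all came from timecourse 1. snR74 had 101, 85 and 109 reads at the 3 labelling times beside 5 reads in total RNA, a log2 ratio of 1.46, 0.80 and 1.71. snR76 was at 0.24 there at 1.5 min (1161 reads against 134). In timecourses 2 and 3 every value was negative, from −2.32 for snR72 at 5 min to −5.57 for snR78 at 1.5 min, both in timecourse 3.

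At 1.5 min the log2 fold change against total RNA was lower in the shorter members. Spearman's rho of the log2 fold change with length was 0.96 at 1.5 min, 0.88 at 2.5 min and 0.63 at 5 min over the 7 members, and 0.90, 0.85 and 0.47 in the fit with the block. Without timecourse 1 it was 0.88, 0.67 and −0.036, so no relation to length was left against total RNA at 5 min. With GC content rho was 0.86, 0.86 and 0.71, and 0.86, 0.57 and 0 without timecourse 1. With the share of T it was −0.57, −0.43 and −0.57, and −0.43, −0.14 and 0.14 without timecourse 1. With position in the transcript it was 0.61, 0.64 and 0.36, and 0.64, 0.71 and 0.036 without timecourse 1. For the log2 fold change from 1.5 to 5 min, rho was −0.96 with length, −0.86 with GC content, 0.57 with T and −0.61 with position. Without timecourse 1 these values were −0.99, −0.89, 0.46 and −0.57. The longest member, snR76, also has the highest GC content (47.7%), and the shortest, snR78, the lowest (27.6%). Length, position and base composition were not separated among these 7 RNAs, all values come from the same libraries, and no p is attached.

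The capture without label held all 7 members at levels above labelled RNA. All 9 labelled libraries lay below both no-label libraries for 7 of 7 members, as they did for 11.9% of 11688 features. On the TMM scale all 9 lay below all 3 total libraries for snR72, snR73 and snR77, a pattern found in 10.3% of features. Without timecourse 1, labelled lay below total for 7 of 7 members and 14.6% of features.

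Tested in edgeR over all 5 groups, snR72, snR73 and snR77 were lower at 1.5 min than without label, and snR72 alone was at 2.5 and 5 min. Of all features 3.35%, 2.17% and 0.282% were lower. snR72 was at −3.24, −2.998 and −2.66 on the log2 scale at the 3 times (adjusted p = 0.0124, 0.0237 and 0.0396). snR73 was at −3.27 and snR77 at −3.58 at 1.5 min (adjusted p = 0.0238 and 0.0385). The remaining values at 1.5 min were −4.65 for snR78, −3.90 for snR74, −3.80 for snR75 and −2.84 for snR76, with adjusted p from 0.0539 to 0.281. The members' median at 1.5 min was −3.58. Other snoRNAs, grouped further on, were low as well. Their medians were −3.26 for other clustered box C/D, −3.43 for independent box C/D and −3.17 for intronic ones. Box H/ACA snoRNAs had −3.21 and U3 had −2.50. Without timecourse 1 or without timecourse 2 no feature at all was called lower (0%). Without timecourse 3 the members called were 3, 2 and 0, and of all features 4.35%, 1.3% and 0% were lower. No member was called under library-size scaling, where the median of all features moved to 2.26, 2.27 and 2.13 and that of the members to −1.22, −0.69 and −0.58, and 0.0856%, 0.0342% and 0.0513% of features were lower. snR77 at 5 min turned to 0.00050 there. DESeq2 called 5, 5 and 3 members lower (8.77%, 7.09% and 6.84% of features).

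Between the no-label capture and total RNA no member passed, and edgeR called 0 of 11688 features (1233 had an unadjusted p below 0.05, none of them a member; DESeq2 called 102, or 0.901%, none a member). The members' log2 fold changes lay between −1.26 for snR77 and −0.10 for snR72. The captured background thus held the cluster RNAs at −0.84 by median relative to the bulk of features, with SEs of 0.44 to 2.34. How much of the signal in the labelled libraries is the same background was not tested.

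Among labelling times, edgeR called 0 of 11513 features in each of the 3 comparisons. At an unadjusted p below 0.05 this fit without a block gave 101, 117 and 754 features for 2.5 against 1.5, 5 against 2.5 and 5 against 1.5 min. None of them was a member. DESeq2 called 139 features (1.85%) for 5 against 1.5 min and 0 in the others, again no member. From 1.5 to 5 min the log2 fold change was 1.82 for snR78, 1.44 for snR77, 1.15 for snR74, 1.03 for snR75, 0.70 for snR73, 0.58 for snR72 and 0.07 for snR76 (lowest adjusted p = 0.858). The members' median was 1.03, against 0.05 over all features. Medians of other snoRNAs, grouped further on, were 1.11 for the other clustered box C/D ones and 1.34 for the independent ones. They were 0.72 for intronic, 1.14 for box H/ACA and 0.26 for U3 snoRNAs, so the rise was not particular to the cluster. With the timecourse as a block in edgeR, snR78 was at 1.73 ± 0.48 and snR77 at 1.34 ± 0.40 (SE). Their unadjusted p was 0.00482 and 0.00785, and their adjusted p 0.183 and 0.229. From 1.5 to 2.5 min snR78 was at 1.35 in that fit, with an unadjusted p of 0.018, and did not pass after adjustment. Without timecourse 1 the values were 1.78 for snR78, 1.48 for snR77, 1.35 for snR74, 0.999 for snR75, 0.57 for snR73, 0.92 for snR72 and 0.32 for snR76, none past the threshold.

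Within timecourses, 18 of 20 values from 1.5 to 5 min were above 0, with 1 pair at or under 3 counts left out. The members of a timecourse share 1 pair of libraries and its scaling, so these values are not replicates. The same count over all features was not made. snR77 was higher at 5 min in each, by 0.97, 1.72 and 1.37 on the log2 scale in timecourses 1, 2 and 3. The 2 values below 0 were snR76 at −0.46 and snR72 at −0.16, both in timecourse 1.

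The share of each member in the cluster's reads needs no scaling between libraries, since all 7 are read in the same library. In total RNA of timecourse 1, with 1227 cluster reads, snR77 took 37.3% (95% exact interval 34.6 to 40.1%), snR73 35.0% and snR72 16.1%. There snR74 took 0.407%, snR75 0.163% and snR78 0%, with an upper bound of 0.3002% for snR78. In timecourse 2 snR76 led by count with 25.7%, then snR77 with 24.9% and snR75 with 19.6%, while in timecourse 3 snR77 took 39.6%, snR73 16.7%, and snR75 and snR78 14.4% each. The members thus stood in different proportions in the 3 total libraries, by more than counting error.

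**Figure D4:**
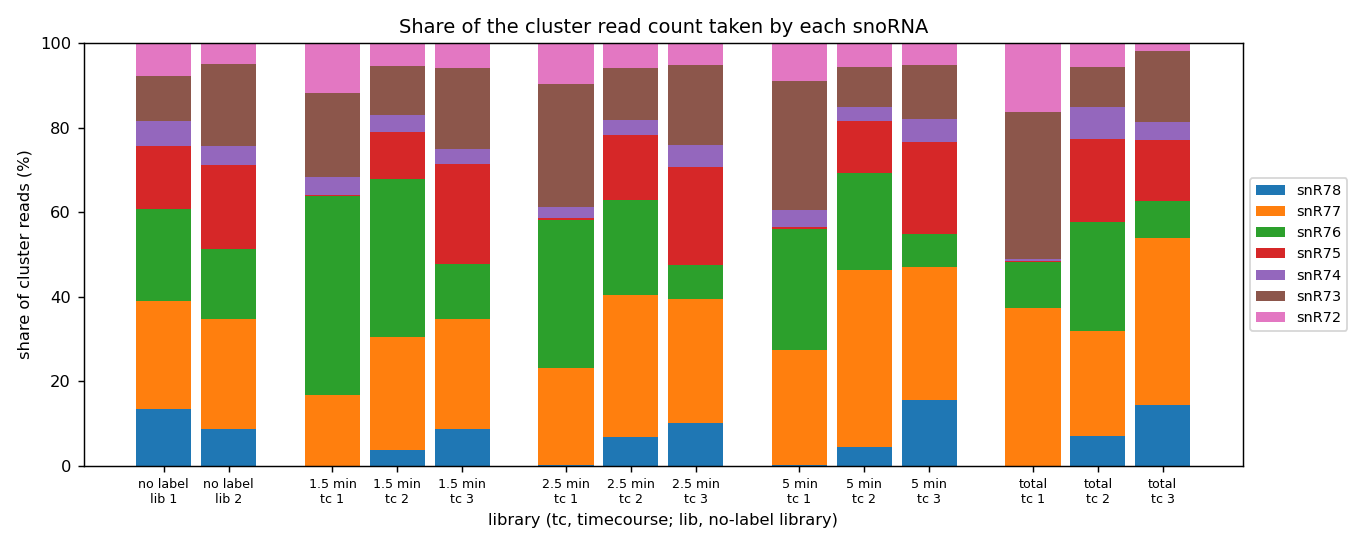
Share of the cluster's read count taken by each snoRNA in 14 libraries, stacked in transcript order from the bottom; tc is the timecourse and lib the no-label library. snR78 and snR75 take almost nothing in the 4 libraries of timecourse 1, and the share of snR76 is larger at 1.5 min than at 5 min in each timecourse.

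Between labelled and total RNA no member's share passed the exact two-sided permutation test, which moved the total label within timecourses. This test had 64 arrangements and a smallest possible p of 0.0156. After adjustment over the 7 members, a member alone at that p could not pass the threshold. The test therefore does not show that the shares were equal. Raw p ran from 0.156 for snR76 to 0.828 for snR78, and from 0.547 to 0.828 after adjustment over the 7 members. For snR78 the differences in log2 ratio were 0.54, −0.61 and −0.43 in timecourses 1, 2 and 3. The value of timecourse 1 rests on at most 3 reads per library and on the pseudocount. snR76 took 24.7% of cluster reads in labelled RNA on average and 15.1% in total RNA. Its log2 ratio to the other 6 was higher in labelled RNA in all 3 timecourses, by 2.23, 0.11 and 0.13. snR77 took 28.5% and 34.0%, with differences of −1.07, 0.63 and −0.69, so its direction changed between timecourses.

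From 1.5 to 5 min, snR76 and snR77 moved apart within each timecourse. The log2 ratio of snR76 to the other 6 changed by −1.15, −0.99 and −0.82 in timecourses 1, 2 and 3, and its share went from 47.0% to 28.6%, from 37.3% to 22.97% and from 13.0% to 7.80%. The ratio of snR77 changed by 0.91, 0.98 and 0.38, with shares from 16.7% to 27.4%, from 26.8% to 42.1% and from 26.1% to 31.5%. snR78 went from 3.72% to 4.33% and from 8.67% to 15.6% in timecourses 2 and 3, while timecourse 1 had at most 3 reads. With 3 pairs no exact two-sided test can reach 0.05, so these are values only. As shares of 1 sum, a fall in snR76 raises the others.

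Per base, the order of levels along the transcript was uneven and did not fall steadily from the first member to the last. At 1.5 min snR76 led per base in timecourses 1 and 2 (44.0% and 33.4% of the length-corrected cluster signal) and snR77 in timecourse 3 (27.9%). In total RNA snR77 led in all 3 timecourses, with 41.3%, 26.9% and 41.6%. The lowest member per base in total RNA was snR78 in timecourse 1 and snR72 in timecourses 2 and 3, at 5.51% and 1.78%. Spearman's rho between position and counts per base lay between −0.79 (total RNA, timecourse 3) and 0.32 (total RNA, timecourse 1) over the 14 libraries. snR74, with 0.451% to 8.14% of the length-corrected signal, lay below its downstream neighbour snR73 in every library. It lay below its upstream neighbour snR75, at 12.3% to 25.1%, in the 10 libraries outside the 4 of timecourse 1, no-label ones included. In timecourse 1 snR74 lay above snR75, with 4.74%, 3.04% and 4.60% at 1.5, 2.5 and 5 min and 0.451% in total RNA. There snR75 had 0.51%, 0.42%, 0.54% and 0.18%.

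**Figure D5:**
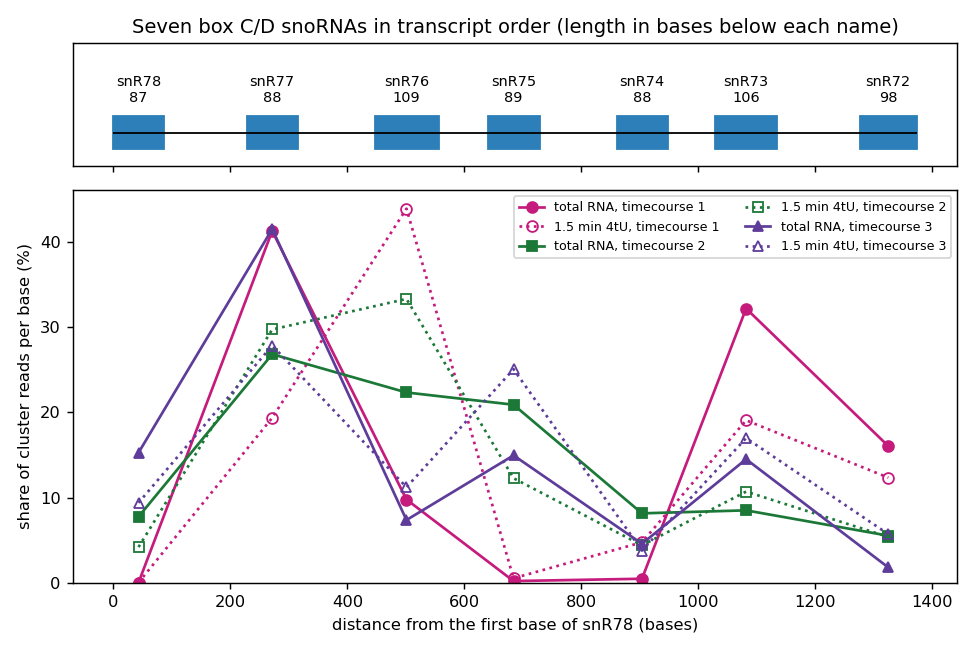
Map of the cluster drawn to scale from the first base of snR78 (top) and, below, the share of the length-corrected cluster reads of each member in total RNA (solid lines) and after 1.5 min of labelling (dotted lines) in timecourses 1, 2 and 3. Peaks fall on snR77 in total RNA and on snR76 or snR77 at 1.5 min, and snR74 is at most 8.14% throughout.

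Across the 14 libraries the members did not all run together. Pearson's r of log2 CPM between pairs of members ranged from 0.50 (snR72 and snR78) to 0.99 (snR75 and snR78), as a description over libraries that share groups and timecourses. snR74 followed the mean of the other 6 most closely (0.95) and snR72 least (0.74). The features outside the cluster most like its mean were tP(UGG)Q (0.988), snR62 (0.984), snR61 (0.982), tM(CAU)Q2 (0.980) and snR50 (0.978), the highest of 11681 features. The tRNAs tP(UGG)Q and tM(CAU)Q2 are mitochondrial, and snR62, snR61 and snR50 are box C/D guides for rRNA.

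Many other snoRNAs were also lower in labelled than in total RNA. Of the 10 other clustered box C/D snoRNAs 8, 5 and 4 were lower at 1.5, 2.5 and 5 min, with medians of −4.09, −3.43 and −3.13, near those of the 7 members. snR53, at −5.95, and snR61, at −5.01, had adjusted p of 0.00388 and 0.0428 at 1.5 min. Of 21 independent box C/D snoRNAs 13, 10 and 6 were lower (medians −4.12, −3.38 and −2.83), of 9 intronic ones 4 at each time (−3.98, −3.67 and −2.85), and of 27 box H/ACA snoRNAs, which guide pseudouridylation, 27, 26 and 23 (−4.07, −3.52 and −2.77). Both genes of the U3 snoRNA, which serves pre-rRNA cleavage, were lower at each time, but they are near-identical copies and their reads may be shared. Without timecourse 1 the other clustered snoRNAs had 5, 5 and 0 lower, the independent ones 16, 5 and 0, the intronic ones 5, 3 and 0, the box H/ACA ones 16, 10 and 0, and U3 none. The medians of the cluster and of the other box C/D lists were not tested against each other.

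Genes for the proteins that make or bind these RNAs were read against a background of 18.1%, 15.1% and 11.7% of all features called in either direction at 1.5, 2.5 and 5 min. Of 12 box C/D protein and assembly factor genes, 1, 2 and 1 were lower, with medians of −0.46, −0.49 and −0.33. SNU13, which binds the C/D motif, was at −2.25 at 1.5 min (adjusted p = 0.00841) and −1.64 at 5 min (adjusted p = 0.0438). Of 13 processing and trimming genes none was called at any time (medians 0.09, 0.12 and 0.17). Of 9 genes for snoRNA transcription termination, PTI1 was at 2.66, SSU72 at 2.42 and NAB3, an RNA-binding termination factor, at −1.08 at 1.5 min (adjusted p = 0.0272, 0.0436 and 0.0424), 2 genes were called at 2.5 min and none at 5 min. Without timecourse 1 no gene of these 3 lists was called.

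The nearest gene on each side of the cluster was read as well, along with features whose position was not used. SEC59 was at 0.03, −0.23 and −0.51 and BUD22 at −0.03, 0.49 and 1.32 (log2 against total RNA at 1.5, 2.5 and 5 min), none past the threshold. The cryptic unstable transcript named CUT_CsnR78D1, a short-lived non-coding RNA that the table names after snR78, had 16, 21 and 112 reads after 1.5 min, 14, 16 and 144 after 2.5 min, and 3, 12 and 87 after 5 min. It had 0, 4 and 0 reads in total RNA and 0 in both no-label libraries, so it was seen almost solely in labelled RNA. Its fitted log2 fold change against total RNA was 4.77 at 2.5 min (adjusted p = 0.0479) and did not pass at 1.5 and 5 min (4.35 and 3.98, adjusted p = 0.0577 and 0.0949). These values depend on how 0 counts are handled. The protein-coding feature YMR013W-A, picked after its values were seen, had 0 reads in the labelled and total libraries of timecourse 1 and 145 to 5354 in the other 10, which include both no-label libraries (648 and 1556). Positions of these last 2 features were not used here, and with no strand setting given, reads of overlapping features cannot be told apart.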

How the data were processed

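The authors deposited raw read counts per annotated feature for 14 libraries, per the file headers, with RPKM values beside them. Per the submitters' processing notes, which give no roles, STAR 2.4.2a and build R64 were used. The counting tool, strand setting, handling of multi-mapping reads and any collapse of PCR copies (16 to 20 cycles) were not given in the sources used here. Of 12549 rows, 100 exact repeats were removed. The deposited RPKM served only to check that the RefSeq lengths are those the authors used (checked in labelled and total libraries, 75 values, largest deviation 0.000473%).

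Counts were tested with edgeR 4.0.16 (R 4.3.3): filterByExpr with a minimum count of 10, TMM scaling, quasi-likelihood F test, Benjamini-Hochberg adjustment over all features, threshold 0.05. Labelled and total libraries (12) were fitted together, and all 14 for comparisons with the no-label group. Shares were tested by exact permutation. Alternatives were DESeq2 1.42.0, scaling by library size, no filter, rRNA features removed, a timecourse block and leaving out timecourses or libraries. Ratios to the other 6 members used a pseudocount of 0.5. Fits were tested on simulated data.

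The labels number the timecourses, and libraries of 1 timecourse deviated together from their group means (r from 0.253 to 0.877, against at most 0.100 across timecourses), so the numbers pair the samples. The 2 no-label columns carry no timecourse and were not paired; both stayed in fits that left out a timecourse. The source label of 1 no-label sample speaks of depleted total RNA, and its title was followed. All 7 members were named. The nearest gene on each side, the 5 most similar features and up to 4 called genes per list were named by rule. CUT_CsnR78D1 and YMR013W-A were picked by hand. Members and lists were chosen with earlier results of these data known. The intron and segment tables, and 2 RPKM columns of the no-label group that match no single sample, were not used here.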

Additional observations from a re-analysis of the deposited data

How the results depend on the processing

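With library size alone, 3, 2 and 1 members were called lower against total RNA at 1.5, 2.5 and 5 min (0.782%, 0.634% and 0.565% of all features). Against no label the counts were 0, 0 and 0 (0.0856%, 0.0342% and 0.0513% of all features). DESeq2 called 5, 5 and 3 lower against no label (8.77%, 7.09% and 6.84% of all features). With the timecourse as a replicate block 7 members were called lower against total RNA at each of 1.5, 2.5 and 5 min (14.7%, 13.7% and 12.1% of all features). The block changed no call among labelling times. Leaving out a timecourse or a total library gave 0 to 6, 0 to 5 and 0 to 5 members against total RNA. Of all features 0% to 17.6%, 0% to 16.2% and 0% to 14.7% were lower in those fits. Against no label, leaving out a timecourse gave 0 to 3, 0 to 2 and 0 members (0% to 4.35%, 0% to 1.3% and 0% of all features). It gave 0 in the comparisons among times and of no label with total RNA. For shares it also gave 0, but too few arrangements remain there for any p to pass the threshold. That 0 decides nothing. The cause of these shifts was not tested, except that fewer libraries remain when some are left out.

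No called fold change reversed. Signs of values that did not pass turned as follows. By library size, snR73 was at −0.11 (5 against 2.5 min), snR76 at −0.12 (5 against 1.5 min) and snR77 at 0.00050 (5 min against no label). Log2 share ratios against total RNA turned for snR78 (0.25 at 2.5 min alone, 0.19 at 5 min alone) and snR73 (0.090 at 2.5 min alone). Leaving out a timecourse or library gave ranges that crossed 0. In no label against total RNA they were −0.52 to 0.25 for snR72, −1.29 to 0.23 for snR73, −1.24 to 0.050 for snR75, −0.93 to 0.26 for snR76 and −1.44 to 0.87 for snR78. Among times they were −0.10 to 0.26 for snR73 and −0.12 to 1.02 for snR78 (5 against 2.5 min) and −0.15 to 0.32 for snR76 (5 against 1.5 min). For the share ratio they were −0.52 to 0.056 for snR78, −0.51 to 1.57 for snR74, −0.30 to 0.13 for snR73 and −0.41 to 0.76 for snR72. In the labelled and total libraries of timecourse 1, values of snR78 and snR75 rest on at most 13 reads.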
